A study of Mus musculus with 2 samples.

Results

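The CCN family is a small group of secreted matricellular proteins, which sit in the extracellular matrix and instruct cells without building its scaffold. Its 6 mouse genes are Ccn1 (older name Cyr61), Ccn2 (Ctgf), Ccn3 (Nov), Ccn4 (Wisp1), Ccn5 (Wisp2) and Ccn6 (Wisp3). The 6 members were looked up by mouse symbol through the NCBI gene number of each row, and all 6 were found among the 17215 genes listed for each library. The family was selected on the FPKM values of this same pair of libraries, in which Ccn4 and Ccn5 lie in opposite directions between the doses, so the members' values are a description and support nothing by themselves. MC3T3-E1, a cell line of bone-forming precursors from mouse skull, was grown in serum-containing medium with formaldehyde (FA), a reactive aldehyde that crosslinks protein and DNA. The library FA-100 came from cells given 100 µM and FA-300 from cells given 300 µM. Each dose has 1 library and the labels state no length of exposure. Cells without formaldehyde were not analysed here. No value below therefore has a replicate error or a p-value, and every difference is one between 2 libraries.

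A CCN protein carries an IGFBP-like module, a von Willebrand C module, a thrombospondin type 1 module and a C-terminal cystine knot, and CCN5 lacks the knot. The coding lengths differ accordingly: Ccn5 encodes 251 residues, against 379 for Ccn1, 348 for Ccn2, 354 for Ccn3, 367 for Ccn4 and 354 for Ccn6. The proteins bind integrins, heparan sulfate proteoglycans and LRP receptors, and hold growth factors such as BMPs, TGF-beta and VEGF in the matrix. In bone, CCN1, CCN2 and CCN4 are known to favour osteoblast differentiation and CCN3 to oppose it. Ccn1 and Ccn2 are immediate early genes driven by YAP and TAZ with TEAD, by SRF and, for Ccn2 above all, by TGF-beta. Ccn4 and Ccn5 have been described as genes induced by Wnt1.

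In the RefSeq promoter table used here, 2 of the 6 members were matched, Ccn1 and Ccn6. The promoters of Ccn2, Ccn3, Ccn4 and Ccn5 were not analysed here. The Ccn1 promoter is shown because Ccn1 is a textbook TEAD target and was among the members lower at 300 µM. It spans the 250 bases before the annotated start on the minus strand of GRCm38.p6, chr3:145649986-145650235, and reads 5′ to 3′ towards the start. Capitals mark matches to the motifs searched.
Ccn1: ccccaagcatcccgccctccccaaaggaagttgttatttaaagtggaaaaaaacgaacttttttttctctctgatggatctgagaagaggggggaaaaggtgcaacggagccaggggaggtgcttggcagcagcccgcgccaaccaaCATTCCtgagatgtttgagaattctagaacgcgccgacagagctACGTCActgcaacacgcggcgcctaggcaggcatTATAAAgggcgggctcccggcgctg
The first run in capitals is the TEAD core CATTCC, 103 bases before the start. The second is ACGTCA, the reverse complement of the cyclic AMP response element core TGACGT, at 59 bases, and the last is the TATA box TATAAA, at 25 bases. On either strand CATTCC occurs in 12.6% of the 32851 promoters of this length, TGACGT in 6.47% and TATAAA in 12.4%. The AP-1 motif TGANTCA, the TCF/LEF core CTTTGA, the SMAD motif CAGACA and the E-box CACGTG, searched on both strands, gave no match in this window of Ccn1. The Ccn6 window held none of these 7 motifs. No 2 of the Ccn1 matches overlap. A match is a description of these letters and was not tied to the levels below.

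The libraries were of similar size. The low values point to about 18500000 mapped fragments at 100 µM and 19400000 at 300 µM. Levels are in FPKM, which counts fragments per kilobase of transcript relative to all mapped fragments and so allows genes of different length to be compared. Osteoblast markers identified the cells in part: Col1a1, the main bone collagen gene, stood at 2065 and 1714 FPKM, and Sp7 (osterix) at 7.21 and 9.47 FPKM, but Alpl (alkaline phosphatase) was near 1 FPKM, at 0.98 and 1.06, and Bglap (osteocalcin) was listed at 0 and 0.49. Summed levels of the 5 endothelial markers (0.13 and 0.15 FPKM), 5 listed adipocyte markers (0.15 and 0.57) and 5 epithelial markers (0.18 and 0.32) were near 0. The 6 macrophage and blood markers summed to 16.3 and 27.7 FPKM, mostly from Lyz2 (13.2 and 26.5), with Adgre1 at 0 in both and Ptprc at 0.03 and 0.05. The 6 muscle markers summed to 3.62 and 10.6 FPKM. Of 7 cartilage markers, Col2a1 stood at 322 and 350 FPKM and Sox9 at 61.4 and 9.78 FPKM, while Acan and Matn1 were at 0 in both. Their part in the CCN results was not tested.

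At 100 µM the family was led by Ccn2 and Ccn1, and at 300 µM by Ccn5. The order at 100 µM was Ccn2 (179 FPKM), Ccn1 (172), Ccn5 (44.1), Ccn4 (33.9), Ccn3 (7.85) and Ccn6 (0.26). At 300 µM it was Ccn5 (254 FPKM), Ccn2 (151), Ccn1 (69.4), Ccn3 (10.5), Ccn4 (2.49) and Ccn6 (0.11). Ccn5 thus moved from the third place to the first and Ccn4 from the fourth to the fifth, and Ccn6 was last in both. Ccn1 and Ccn2 differed little at 100 µM. Exact 95% Poisson intervals of their estimated reads, which cover counting error only, were 168 to 176 FPKM and 175 to 183 FPKM and overlapped. No other neighbours in either order had overlapping intervals. The spread between cultures, which is unknown here, is not part of them.

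**Figure D1:**
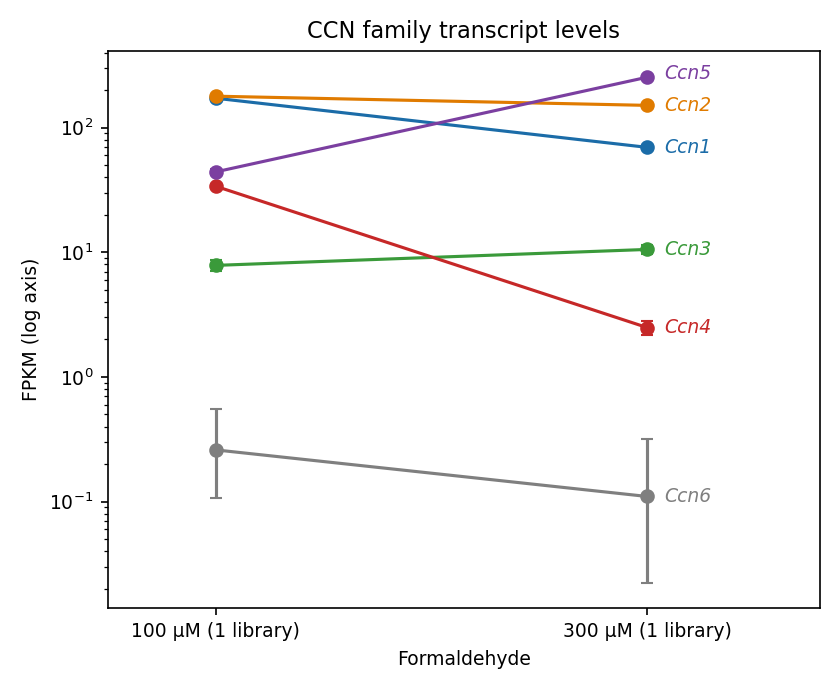
FPKM of the 6 CCN genes on a log axis in the library at 100 µM and the library at 300 µM formaldehyde, with lines joining the values of a gene and bars giving exact 95% Poisson intervals of the estimated reads (counting error only). The Ccn5 line climbs from 44.1 to 254 FPKM and crosses those of Ccn1 and Ccn2, while the Ccn4 line drops from 33.9 to 2.49 FPKM and crosses that of Ccn3.

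Ccn5 accounted for 10.1% of the family's summed FPKM at 100 µM and 52.1% at 300 µM. The shares of Ccn1 were 39.4% and 14.3%, those of Ccn2 40.9% and 31.0%, and those of Ccn4 7.75% and 0.511%. The 6 genes together summed to 437 FPKM in FA-100 and 487 FPKM in FA-300. As a share of the FPKM of all genes the family went the other way, from 0.0820% to 0.0704%, because the summed FPKM of all genes was itself larger at 300 µM. Without Ccn5 the other members summed to 393 and 233 FPKM. The make-up of the family differed more than its total, with the knotless member in the majority at the higher dose. The family was chosen for the opposite directions of Ccn4 and Ccn5. Such moves change the shares and partly cancel in a sum, so nothing is read from this contrast.

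Differences between the doses are given as log2 of (FPKM + 1) at 300 µM over (FPKM + 1) at 100 µM, and a gene was counted as higher or lower at 2-fold or more on that scale. The added 1 FPKM understates the difference of low genes. Of the 6 members, 5 reached the mean of 1 FPKM needed to be compared, and Ccn6 did not. Among these 5, Ccn5 was higher by that size and Ccn4 and Ccn1 were lower, with Ccn2 and Ccn3 between. The background over the 10123 genes compared was 6.09% higher and 29.8% lower by that size, 35.9% in all. It was 14.5% and 22.3% after centring on the median gene, 2.16% and 38% with both libraries scaled to equal sums, and 7.08% and 23.5% with the trend on transcript length removed. The rule that chose the family used this contrast, so nothing is read from the members' count. In bulk RNA a smaller share of expressing cells and less RNA per cell cannot be told apart.

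Ccn4 encodes a secreted protein that osteoblasts and their precursors make, and that binds biglycan, decorin and BMP2. Its level was 33.9 FPKM in FA-100 and 2.49 FPKM in FA-300, 13.6 times higher at the lower dose before any pseudocount. Its log2 ratio was -3.32, the 58th lowest of the 10123 genes compared. The values rest on about 3196 reads at 100 µM and 246 at 300 µM, with Poisson intervals of 32.7 to 35.1 FPKM and 2.18 to 2.82 FPKM. Of the 5 members compared, Ccn4 was the only one below 5 FPKM at 300 µM. None of the 5048 words of 50 bases in its transcript occurs in a transcript of another gene.

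Ccn5, known as a growth-arrest gene of smooth muscle and an inhibitor of the fat cell fate, went in the opposite direction. Its level was 44.1 FPKM in FA-100 and 254 FPKM in FA-300, a 5.75-fold difference before any pseudocount. Its log2 ratio was 2.50, the 18th highest of all genes compared. About 1405 and 8464 reads stand behind these levels. The ratio of the Ccn5 level to the Ccn4 level was 1.30 at 100 µM and 102 at 300 µM. These 2 Wnt-induced genes were thus close in level at the lower dose and far apart at the higher one. None of the 1670 words of 50 bases in the Ccn5 transcript is shared with another gene.

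**Figure D2:**
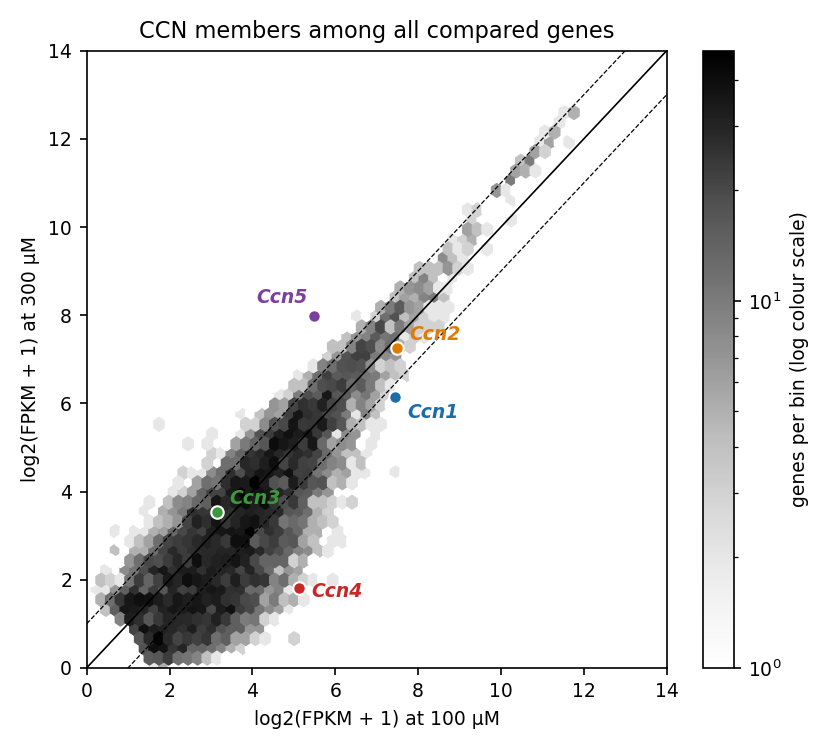
log2(FPKM + 1) at 100 µM (horizontal) and 300 µM (vertical) for the 10123 genes compared, as a density of genes per bin, with the 5 compared CCN members as coloured points. The solid line marks equal values and the dashed lines 2-fold, and Ccn5 (log2 ratio 2.50) lies above the cloud while Ccn4 (-3.32) lies at its lower edge.

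Ccn1 encodes an adhesive protein that engages integrins and is induced within minutes by serum and stretch. Its level was 172 FPKM in FA-100 and 69.4 FPKM in FA-300, and its log2 ratio was -1.30. That places Ccn1 beyond 2-fold lower on the deposited scale, but not after centring on the median gene (-0.997) or with a TMM factor, a trimmed mean of the ratios (-0.91). Ccn2, connective tissue growth factor, stood at 179 and 151 FPKM with a log2 ratio of -0.24, a sign that turned to 0.06 after centring and 0.14 with the TMM factor. The pair, often regulated together, was nearly level at 100 µM (Ccn2 over Ccn1 1.04) and stood 2.17 apart at 300 µM. This gap between Ccn2 and Ccn1 does not depend on how the libraries are scaled, because both come from the same library.

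Ccn3, which binds Notch1 and BMPs, had levels of 7.85 FPKM in FA-100 and 10.5 FPKM in FA-300. Its log2 ratio of 0.38 was within 2-fold, and it was 0.04 when both libraries were scaled to the same sum. Of its 2820 words of 50 bases, 1.10% occur in transcripts of other genes. Ccn6, the member tied in humans to a childhood cartilage disease, was close to the limit of detection. It stood at 0.26 FPKM, about 7 reads, and 0.11 FPKM, about 3 reads, with overlapping intervals of 0.107 to 0.549 and 0.0225 to 0.318 FPKM. A dose difference of Ccn6 was not detectable at this depth.

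The order of the members' ratios was the same in every setting run, although a scaling shifts all genes alike and can hardly change it. In each of the 8 settings with their own ratios, the deposited scale included, Ccn5 had the highest ratio, followed by Ccn3, Ccn2, Ccn1 and Ccn4. Ccn4 ranged from -3.71 with a pseudocount of 0.1 to -2.38 with a pseudocount of 5, and Ccn5 from 2.12 with equal sums to 2.88 with the TMM factor. Both stayed beyond 2-fold throughout. Ccn3 stayed within 2-fold, between 0.04 and 0.74.

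**Figure D3:**
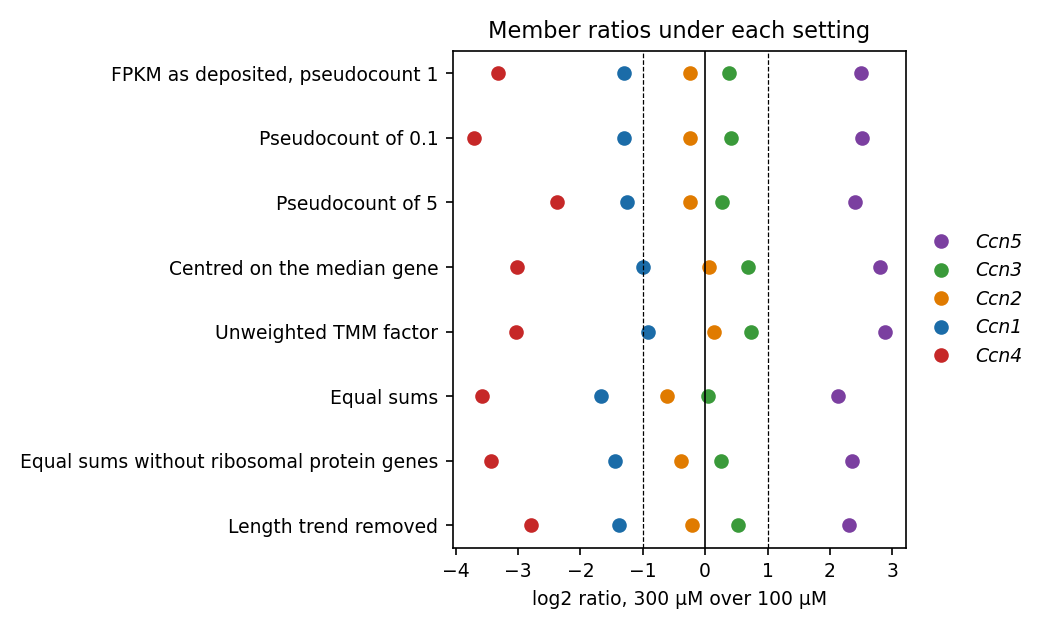
log2 ratios (300 µM over 100 µM) of the 5 compared CCN members, one row per setting: pseudocounts, scalings and removal of the length trend. The dashed lines mark 2-fold, and only Ccn1 moves across one of them, while Ccn2 moves across 0.

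Transcript length moved with the ratio over all genes, and the members differ in length. Among genes compared that have a GENCODE transcript, the median log2 ratio was 0.46 in the shortest of 5 equally filled length classes (267 to 1652 bases) and -0.99 in the longest (from 4766 bases). The representative transcript of Ccn4, with 5097 bases, lies in the longest class, and that of Ccn5, with 1719 bases, in the second, whose median was -0.03. Ccn1 (2019 bases) and Ccn2 (2398 bases) also lie in the second class and Ccn3 (2869 bases) in the third. Ccn5, Ccn1 and Ccn2 were therefore spread from 2.50 to -1.30 within the same length class. After a linear trend on log2 length was removed, Ccn4 had -2.79, Ccn5 2.30, Ccn1 -1.38, Ccn2 -0.22 and Ccn3 0.53.

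**Figure D4:**
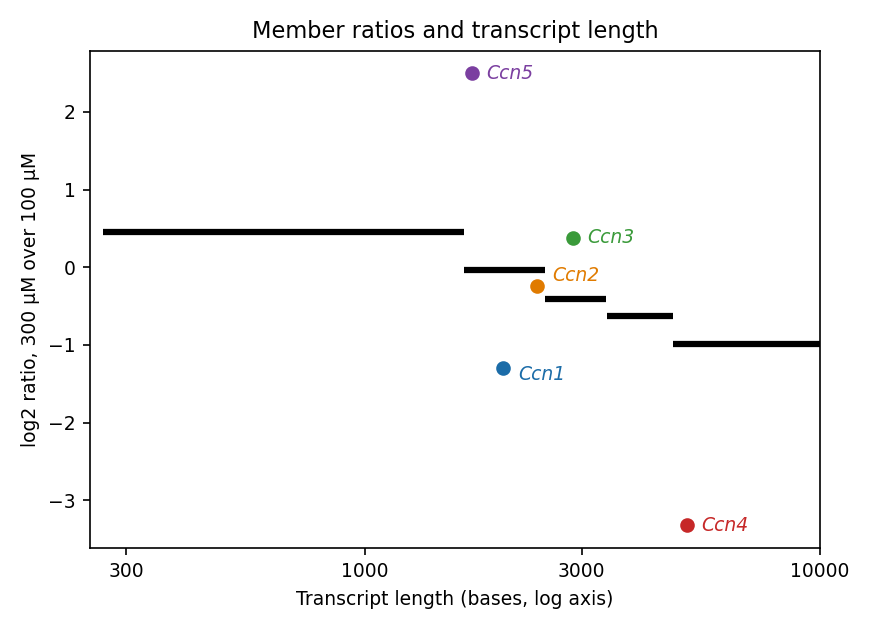
log2 ratio (300 µM over 100 µM) against transcript length on a log axis for the 5 compared CCN members (points), with the median of all compared genes in each of 5 length classes (black bars, the last drawn to 10000 bases). The medians step down from 0.46 to -0.99, and Ccn4, Ccn1 and Ccn5 lie well away from the bar of their own class.

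Genes with nearly the same pair of levels were sought for each member by the smallest distance between log2(FPKM + 1) values over the 2 libraries. For Ccn4 these were Mapk6 (34.98 and 2.44 FPKM, distance 0.05), Arl4c (35.2 and 2.40) and Slc35e3 (32.7 and 2.30). Ccn5 had no close match: the nearest were Churc1 (34.9 and 337 FPKM) at a distance of 0.53, Id3 (51.6 and 174) at 0.59 and Exosc2 (44.4 and 164) at 0.63. For Ccn1 they were Eif3a, Eif4g1 and the matricellular gene Thbs1, at distances of 0.17 to 0.25. Arf4, Eif6 and C1qbp lay within 0.06 of Ccn2, and Dnal4, Mast2 and Bnip3 within 0.05 of Ccn3. With 2 libraries such likeness says only that the levels were alike.

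The chromosomal neighbours of Ccn4, Ccn5 and Ccn1 were within 2-fold or near 0 in both libraries. The nearest listed protein-coding genes beside Ccn4 are Sla, near 0 in both libraries, and Ndrg1, at 16.7 and 14.4 FPKM. Beside Ccn5, Ada stood at 6.28 and 9.61 FPKM and Kcnk15 was listed at 0 in both. Beside Ccn1, Znhit6 stood at 21.8 and 18.1 FPKM and Ddah1 at 5.04 and 9.12 FPKM. The log2 ratios of Ndrg1, Ada, Znhit6 and Ddah1, between -0.26 and 0.74, were all within 2-fold. Beside Ccn6, Tube1 stood at 3.11 and 2.16 FPKM, and Fyn at 2.21 and 7.09 FPKM (1.33), beyond 2-fold. The listed neighbours of Ccn2 and Ccn3 were near 0 in both libraries.

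Receptors and co-receptors for CCN proteins were mostly lower at 300 µM. By the 2-fold size, 8 of the 12 compared were lower and 0 higher, beside 29.8% and 6.09% of all genes. Their median log2 ratio was -1.41, against -0.30 over all genes compared. The integrin subunit gene Itga5, whose product pairs with beta 1 to bind fibronectin, had levels of 60.01 FPKM in FA-100 and 8.47 FPKM in FA-300 (-2.69). Lrp6, the Wnt co-receptor that CCN proteins also bind, stood at 12 and 2.04 FPKM (-2.10). Itgav, the alpha subunit of the vitronectin receptors through which CCN1 and CCN2 act, had -1.47 and the endocytic receptor gene Lrp1 -1.14. Itgb1, the shared beta 1 subunit, was the most abundant of the receptors, at 280 and 198 FPKM, with a ratio of -0.50. These receptor transcripts are long, with a median of 4772 bases against 2921 over all genes. Once the length trend was removed, 6 rather than 8 were lower, beside 23.5% of all genes.

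Growth factors and matrix partners were split. By the same size 5 of the 12 compared were lower and 0 higher, with a median of -0.49, beside 29.8% of all genes lower. After centring, 3 were lower and 1 higher, beside 22.3% of all genes lower. The lower ones were Vegfa (91.8 and 7.08 FPKM), Fgf2 (6.13 and 0.08), Tgfb3 (28.8 and 7.66), Tgfb1 (72.6 and 34.0) and Tnfrsf11b, the decoy receptor osteoprotegerin that CCN2 binds (22.9 and 8.80). Bmp2 was listed at 0 in both libraries. The matrix proteoglycan genes Bgn and Dcn, whose products hold CCN4, had ratios of 0.37 and 0.45. Of the proteases that cleave CCN proteins, 4 were compared and 0 were beyond 2-fold. All 5 lower genes of the partner list encode soluble secreted proteins, but other soluble factors, Bmp4, Igf1, Igf2 and Tgfb2, were within 2-fold, as were the matrix genes Fn1, Bgn and Dcn.

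**Figure D5:**
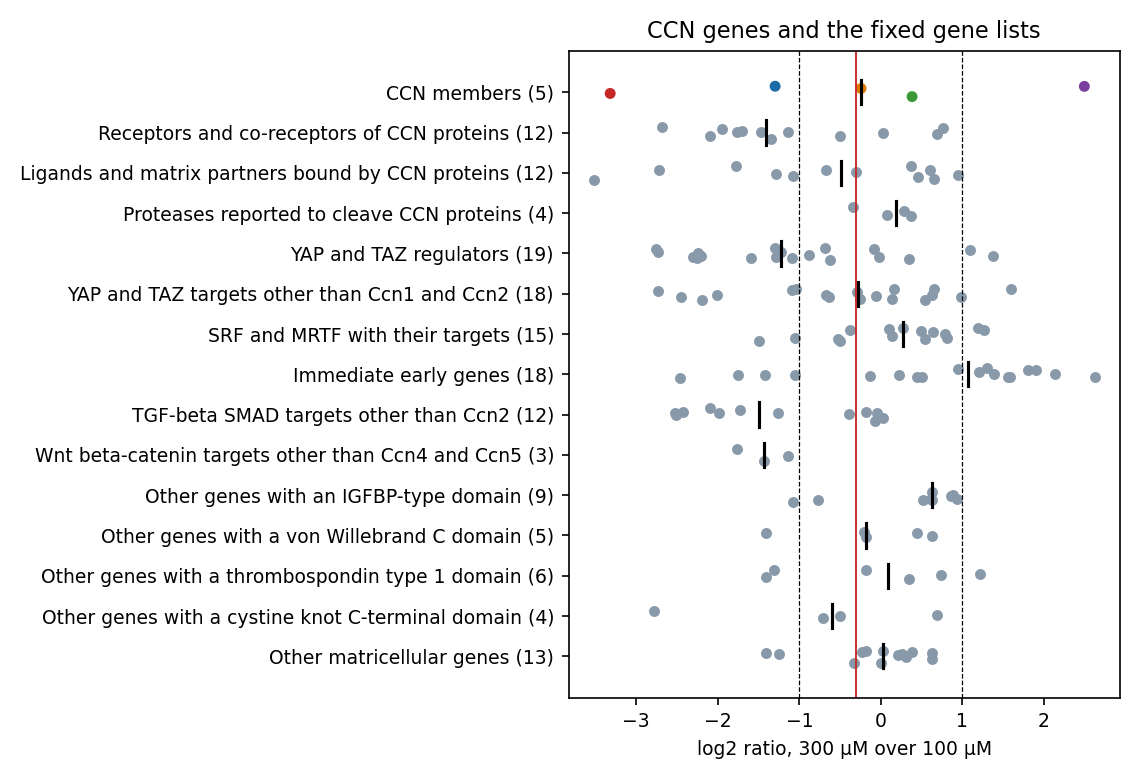
log2 ratios (300 µM over 100 µM) of single genes, one row per fixed list with the number of genes compared in brackets. Black ticks are list medians, the red line is the median of all compared genes (-0.30) and dashed lines mark 2-fold. The CCN row spans from -3.32 to 2.50. The medians of the TGF-beta, Wnt, receptor, and YAP and TAZ regulator rows lie furthest to the left of the red line.

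Genes upstream of Ccn1 and Ccn2 in the Hippo pathway, in which LATS kinases keep YAP and TAZ out of the nucleus, were lower more often than higher, as were all genes compared. Among 19 YAP and TAZ regulators, 11 were lower by 2-fold or more and 2 higher (median -1.23), 7 and 2 after centring. Of all genes compared, 29.8% were lower and 6.09% higher, 22.3% and 14.5% after centring. The regulator transcripts are long, with a median of 4412 bases against 2921 over all genes. With the length trend removed 9 were lower, beside 23.5% of all genes. The kinase gene Lats1 stood at 17.0 and 1.65 FPKM and the angiomotin gene Amotl2 at 124 and 17.7 FPKM. Yap1 itself stood at 16.8 and 10.6 FPKM (-0.63) and Wwtr1, which encodes TAZ, at 12.4 and 11.6 FPKM (-0.09). Higher were the TEAD factor gene Tead2 (13.5 and 30.1 FPKM) and the kinase gene Stk3 (2.52 and 8.12 FPKM).

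Other targets of YAP and TAZ did not share one direction and, on the deposited scale, were close to all genes compared. Among 18 of them, 6 were lower by 2-fold or more, 1 was higher and 11 lay between. Of all genes, 29.8% were lower and 6.09% higher. The list's median of -0.28, against -0.30 over all genes, turned to 0.02 after centring. The lower count was 4 after centring and also with the length trend removed, beside 22.3% and 23.5% of all genes. The higher count was 2 after centring and 3 with that trend removed, beside 14.5% and 7.08%. These transcripts are long, with a median of 4152.5 bases against 2921 over all genes. With the length trend removed the list's median was 0.35. Foxf2 stood at 13.2 and 1.6 FPKM (-2.45), beside Amotl2, which is on both lists. Gadd45a stood at 10.8 and 34.7 FPKM (a log2 ratio of 1.595), and Ankrd1, the target most often read with Ccn1 and Ccn2, at 32.2 and 64.6 FPKM (0.98). Ccn1 (-1.30), Ccn2 (-0.24) and Ankrd1 were thus at 3 different ratios in the same pair of libraries.

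SRF and its cofactors, the serum-responsive arm of Ccn1 and Ccn2 control, also differed among themselves. Srf stood at 34.3 and 37.7 FPKM (0.13), whereas its cofactor genes Mrtfa and Mrtfb had -1.50 and -1.05. Among 15 genes of this list, 2 were higher by that size, the contractile genes Myl9 and Cnn2 (1.26 and 1.20), and 2 lower. The counts were 4 and 1 after centring and 0 and 2 with equal sums. Of all genes compared, 6.09% were higher and 29.8% lower. These shares were 14.5% and 22.3% after centring and 2.16% and 38% with equal sums. Immediate early genes, the class to which Ccn1 belongs, were higher in 9 of 18 and lower in 4 (median 1.07), beside the same 6.09% and 29.8%. After centring, 10 were higher and 3 lower. Fos stood at 7.35 and 50.4 FPKM and Zfp36 at 16.0 and 73.7 FPKM, whereas Myc (-2.46) and Klf6 (-1.76) lay on the side of Ccn1.

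Several TGF-beta targets were lower, while Ccn2 was within 2-fold. Among 12 other SMAD target genes, 7 were lower by 2-fold or more and 0 higher, with a median of -1.49, beside 29.8% of all genes lower. The lower count was 6 after centring or with the TMM factor and 8 with the length trend removed. Of all genes, 22.3% were lower after centring and 23.5% with that trend removed. With the TMM factor 2310 of the 10123 genes compared were lower. The feedback regulator genes Pmepa1 (43.7 and 6.75 FPKM) and Skil (8.02 and 0.58 FPKM) had -2.53 and -2.51. Tgfb1 itself had -1.07.

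Few Wnt targets were expressed at a level to compare. Only 3 of 13 listed Wnt target genes reached a mean of 1 FPKM, and all 3 were at least 2-fold lower: Axin2, the feedback gene of the pathway (2.53 and 0.04 FPKM), Ccnd1, cyclin D1 (125 and 45.8 FPKM), and Tnfrsf19 (2.69 and 0.68 FPKM). Of all genes compared, 29.8% were lower by that size. After centring the count was 2 of 3, beside 22.3% of all genes. With the length trend removed it was also 2, beside 23.5%. With a pseudocount of 5 it was 1, beside 1630 of the 10123 genes compared. Axin2 and Tnfrsf19 were low in both libraries. Ctnnb1, which encodes beta-catenin, stood at 156 and 99.4 FPKM (-0.64). Ccn4 lay on the side of these genes and Ccn5 did not, but the rule chose the family on those directions, so nothing is read from this.

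Genes that share a module with the CCN proteins were also measured, beside 29.8% of all genes lower and 6.09% higher. The IGFBP-type genes had 1 of 9 at least 2-fold lower, Igfbp5 (2.34 and 0.58 FPKM), and 0 higher, with a median of 0.62. After centring, 3 were higher and 0 lower, beside 14.5% and 22.3% of all genes. Thrombospondin type 1 genes had 1 of 6 higher, the R-spondin gene Rspo3 (0.85 and 3.30 FPKM), and 2 lower, Thbs1 (160 and 59.3 FPKM) and Adamts1 (18.6 and 6.91 FPKM). Thbs1 was also the 1 lower gene among 5 with a von Willebrand C module, where 0 were higher. With the length trend removed, 0 genes of either list were lower and 1 of each was higher, beside 23.5% and 7.08% of all genes. With equal sums 0 thrombospondin type 1 genes were higher, beside 2.16% of all genes.

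Other matricellular genes were mostly within 2-fold between the doses. Among 13 of them, 0 were higher by 2-fold or more and 2 lower, Thbs1 (-1.41) and the tenascin gene Tnc (60.8 and 25.1 FPKM, -1.25). On this deposited scale 29.8% of all genes were lower and 6.09% higher. The lower count was 1 after centring and 0 with the length trend removed, beside 22.3% and 23.5% of all genes. Sparc, the most abundant of them, stood at 1596 and 1915 FPKM and Postn (periostin) at 261 and 260 FPKM. The list's median of 0.03 turned to -0.30 with equal sums.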

How the data were processed

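The deposited values are FPKM per gene, rounded to 2 decimals, per the file headers, in 1 table per library. Bowtie2 and RSEM are named, without versions, in the submitters' processing notes, while genome build and annotation were not given in the sources used here. Symbols came from NCBI gene numbers (17179 from RefSeq GRCm38.p6, 6 from GENCODE M21, 30 unmatched), and transcript and coding lengths from 1 representative GENCODE M21 transcript per gene. From the FPKM, log2 ratios with a pseudocount of 1 were computed for genes averaging 1 FPKM or more over both libraries, and 2-fold was the size counted. With 1 library per dose there was no test. Depth was read from low values of genes with 1 transcript: at 54 and 51.5 bases of FPKM times length per read, 68.4% of 79 values and 67.2% of 58 lay within 0.12 of a whole read. Read numbers and Poisson intervals follow from these steps. They cover counting error only and may be too narrow even for that, since PCR copies are not independent molecules. The members and the 14 gene lists were chosen with earlier results of these data known. Named genes are the members, up to 2 genes per list and direction beyond 2-fold, 16 fixed genes and the 3 genes nearest to each member. Some genes taken by this rule, and the results that need them, are left out. Other genes (Tgfb3, Tnfrsf11b, Tnfrsf19, Bgn, Dcn, chromosomal neighbours and markers) were chosen after their values were seen. Alternatives were other pseudocounts (0.1 and 5), scalings, sizes and filters, and a correction for length. The ratio with a pseudocount of 1 was checked on simulated libraries of equal depth with known differences, and the length fit on a planted slope. The other alternatives were run on simulated data without a check of their results. The work used matplotlib 3.10.9, scipy 1.17.1, pandas 2.3.3 and numpy 2.4.6 under Python 3.11.15.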

Additional observations from a re-analysis of the deposited data

How the results depend on the processing

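The 12 settings were those above plus sizes of 1.5-fold and 3-fold and other filters, and Ccn4 and Ccn5 kept their direction and stayed beyond 2-fold in each setting that gives them a ratio. After centring on the median gene, Ccn1 had -0.997 and Ccn2 0.056, and with the TMM factor (30% of ratios and 5% of levels trimmed at each end) -0.91 and 0.14. The members at least 2-fold lower then numbered 1 in place of 2, as they did at 3-fold. All genes higher numbered 616 and became 258 with a pseudocount of 5, 1472 after centring, 1694 with TMM, 219 with equal sums, 409 with equal sums without the ribosomal protein genes, 1901 at 1.5-fold, 123 at 3-fold and 358 at a minimum mean of 10 FPKM. All genes lower numbered 3020 and became 1630 with a pseudocount of 5, 1653 at 3-fold and 1141 at a minimum mean of 10 FPKM. Centring raised the share higher to 14.5% and lowered the share lower to 22.3%, and equal sums gave 2.16% and 38%. Of the 140 distinct genes of the fixed lists that were compared, 15 were higher, beside 6.09% of all genes. These became 25, 28 and 9 under centring, TMM and equal sums, and 36 and 6 at 1.5-fold and 3-fold. Those lower numbered 49, beside 29.8% of all genes, and became 35 after centring, beside 22.3%. They numbered 34 with TMM, 38 with the length trend removed and 28 at 3-fold. At a minimum mean of 10 FPKM, where fewer genes are compared, 28 were lower. Scaling shifts all ratios by construction: the log2 ratio of the median gene was -0.30, and that of the summed FPKM 0.38. No paired analysis was possible because there is 1 library per dose.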
